A study of Mus musculus with 40 samples.

Results

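The heart between 1 and 4 weeks of age was profiled here as whole-organ RNA from male C57BL/6 mice, an age span in which a mouse heart takes on its adult form. The members are arrays, and they were chosen by their labels: 5 hearts at 4 weeks and 5 at 1 week. Replicate 5 at 1 week was left out, so 9 of the 40 arrays of the series were used, 4 at 1 week and 5 at 4 weeks. The series measured kidney, lung and heart at several ages on 1-colour Affymetrix arrays, and its labels describe the 1-week organs as rapidly proliferating. No treatment or mutation was applied to either age. The labels name a Trizol extraction of total RNA and biotin as the label of the cRNA. The labels list each array as a separate sample of its group, but do not say for heart that each came from its own animal, so the p-values measure the spread between these samples.

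A newborn mouse heart still makes new muscle cells, burns mostly glucose and lactate, and builds its contractile filaments partly from fetal protein isoforms. In the weeks after birth cardiomyocytes leave the cell cycle, enlarge, fill with mitochondria and switch to fatty acids as their main fuel. Over the same period the matrix laid down during growth matures, the ion channels that shape the adult action potential appear, and resident macrophages take on an adult character. Thyroid hormone and glucocorticoids are known drivers of much of this change.

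The label was borne out by the muscle genes. On the 9 arrays used, Myh6, the alpha myosin heavy chain of adult mouse heart, gave signals from 36521 to 60582. On the kidney and lung arrays of these ages it gave 10.8 to 2076. Replicate 4 of lung at 1 week was left out of these, because it carries heart transcripts. Tnnt2, cardiac troponin T, ranged from 38130 to 61224 in heart and from 1.1 to 1749 in kidney and lung. The transcription factor Nkx2-5 ranged from 1788 to 3119 against 111 to 410. The left-out heart array was different: it read 2396 for Myh6 and 27187 for Sftpc, the surfactant protein C gene of lung, which stood between 116 and 1072 on the other heart arrays. Its correlation was 0.985 with the mean profile of the 1-week lung arrays and 0.791 with that of the other 1-week hearts. Among the arrays used, replicate 1 at 1 week stood apart in its high cell cycle genes and its low Myh7, and replicate 2 at 4 weeks in its low atrial genes, and Myh7, the atrial genes and their isoform pairs are given with and without them below. Correlations between arrays of one age ran from 0.940 to 0.978 at 1 week and from 0.958 to 0.975 at 4 weeks, above the 0.898 to 0.935 between ages.

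Signals were compared as log2(signal + 16), with 1 probe set per gene. Folds are on that scale, which understates the change of dim genes. Of 18193 genes on the array, 12946 were bright enough in at least 1 heart age to be tested. By limma with Benjamini-Hochberg adjustment at 0.05, 3406 genes changed between the ages, 26.3% of those tested. Of these, 1513 rose (11.7%) and 1893 fell (14.6%). At least 2-fold changes were found for 357 that rose and 506 that fell, and at least 4-fold changes for 57 and 74. The median change over all genes tested was -0.04, and 90% of genes lay between -0.91 and 0.79. The signals of the 2 ages did not overlap for 3153 genes, 24.4% of those tested. Keeping replicate 5 at 1 week cut the calls to 2382, of which 2328 were shared and in the same direction. Since whole organs were measured, fewer cells of a type and less RNA per cell cannot be told apart.

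**Figure D1:**
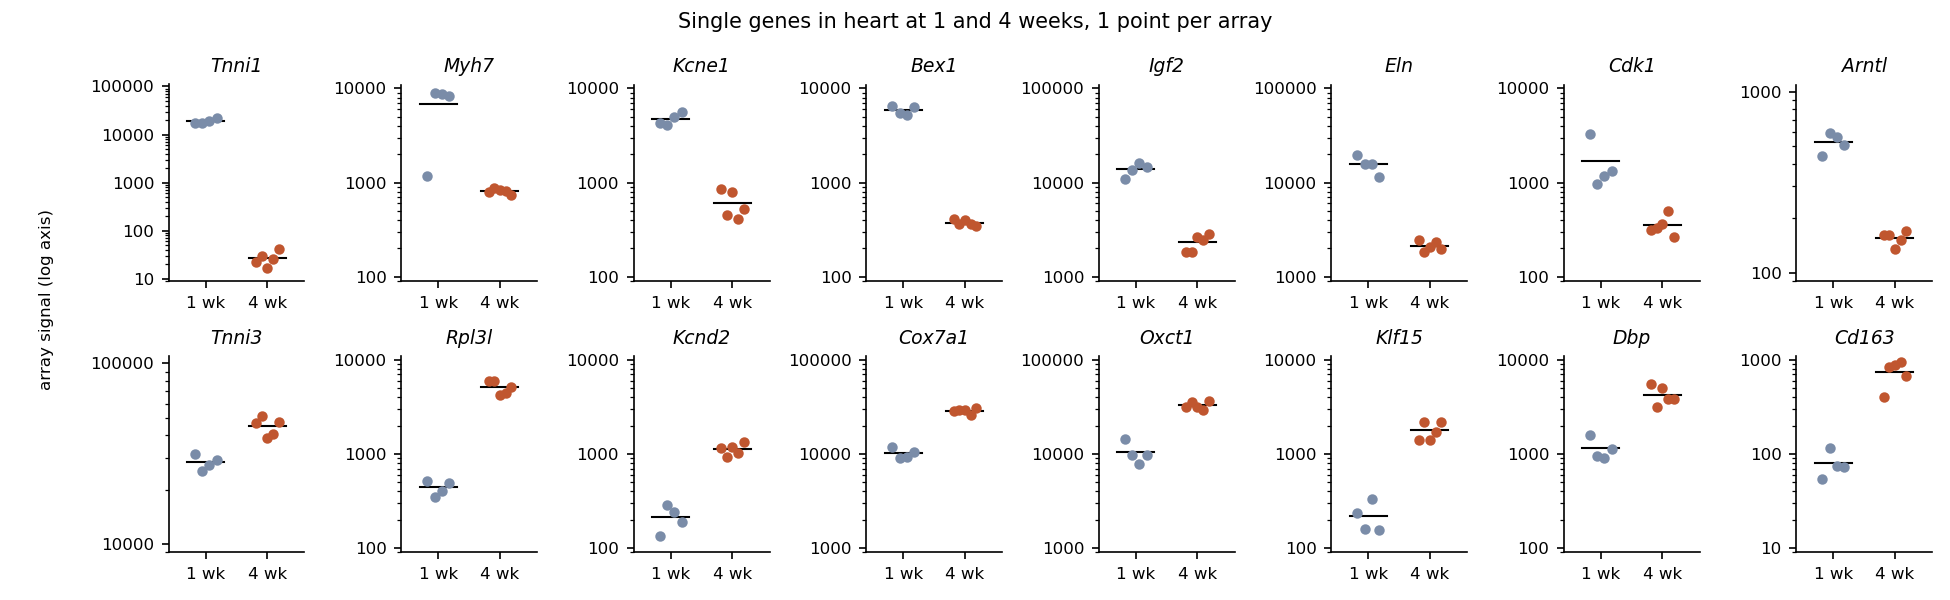
Signals of 16 genes on each heart array at 1 week (4 arrays, grey-blue) and 4 weeks (5 arrays, orange), on log axes that differ between panels; bars are means. In the panels of Tnni1, Kcne1, Bex1, Igf2, Eln, Cdk1 and Arntl every 4-week array lies below every 1-week array, as it does for Myh7, where replicate 1 at 1 week sits near the 4-week level; in the other 8 panels every 4-week array lies above.

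The largest change of any gene tested was the loss of Tnni1, the slow skeletal troponin I that serves as the fetal form in heart. Its signals were 17264, 17501, 19287 and 22089 at 1 week and 22.5, 29.3, 16.6, 25.6 and 41.1 at 4 weeks. It fell by 8.81 on the log2 scale (SE 0.16, adjusted p = 1.08e-09), or 448-fold. Tnni3, the adult cardiac troponin I, read 31464, 25445, 27529 and 29042 at 1 week and 46670, 51348, 38766, 40552 and 47416 at 4 weeks. It rose by 0.66 (SE 0.12, adjusted p = 0.003), and neither gene's arrays overlapped between the ages.

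Myh7, the fetal beta myosin heavy chain of rodents, fell by 2.68 (SE 0.53, adjusted p = 0.00454). Its 1-week signals were 1182, 9007, 8727 and 8297, and its 4-week signals 801, 875, 840, 808 and 728. Replicate 1 at 1 week was thus close to the 4-week level, while the other 3 arrays of that age lay between 8297 and 9007. Without replicate 1 the change was -3.40. Myh6 read 44803, 36521, 36560 and 38571 at 1 week and 57945, 60582, 46831, 48955 and 58060 at 4 weeks, a rise of 0.48 (SE 0.12, adjusted p = 0.0164). Among 17 fetal sarcomere and smooth muscle isoforms tested, 8 fell and 1 rose, with a median change of -0.47. Cnn1, Myl9 and Csrp2, which smooth muscle cells also express, had changes of -1.89, -1.44 and -1.43. The member that rose was Acta1, skeletal alpha-actin, from a mean of 3196 to 5372 (log2 change 0.74).

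Adult sarcomere and Z-disc genes mostly moved the other way: 25 of 45 tested rose and 3 fell, with a median of 0.42. Trim54, a muscle ring-finger protein that binds microtubules, read 640, 575, 462 and 462 at 1 week and 2804, 2990, 2505, 2287 and 3040 at 4 weeks. This was a rise of 2.32 (SE 0.14, adjusted p = 7.04e-06) with no overlap. Lmod2, a leiomodin that nucleates and lengthens thin filaments, rose by 1.84 from a mean of 3355 to 12128. Tcap, the titin cap protein telethonin, rose by 1.69 from 10727 to 33746. Myot, the Z-disc protein myotilin, rose by 1.80, and Cmya5, or myospryn, by 1.32. Sntb1, a syntrophin, fell by 1.80 and Pdlim3, a Z-disc LIM protein, by 1.24.

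How the arrays are scaled bears on the most abundant of these genes. The 188 genes tested with a mean heart signal of 16000 or more had a median change of 0.44, with 105 that rose and 4 that fell. Quantile normalization, run over all 40 arrays with kidney and lung included, gives every array the same distribution of signals. After it the median of these 188 genes was 0.05, with 28 that rose and 15 that fell. Normalizing the heart arrays alone was not tried. Between 4000 and 16000 the median of 753 genes moved from 0.14 to 0.04, and below 4000 the medians of the 3 lower bands lay between -0.09 and -0.02 before and -0.03 and -0.01 after. The share of all signal held by the 100 brightest probe sets was 8.47% to 9.88% at 1 week and 10.1% to 11.8% at 4 weeks, without overlap. Neither scaling was tested against an outside standard. The adult sarcomere list had 15 that rose and 3 that fell after quantile normalization, with a median of 0.09; Trim54 (2.23), Myot (1.82), Lmod2 (1.49) and Tcap (1.30) were still called, while Myh6 (0.06), Tnni3 (0.17), Tnnt2 (0.03) and Ttn (0.02) were not. Tnni1 and Myh7 still fell, by 8.50 and 2.51. Across all genes, 2963 of the 3406 calls were also made after quantile normalization, none in the opposite direction, as were 850 of the 863 calls of 2-fold or more.

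**Figure D2:**
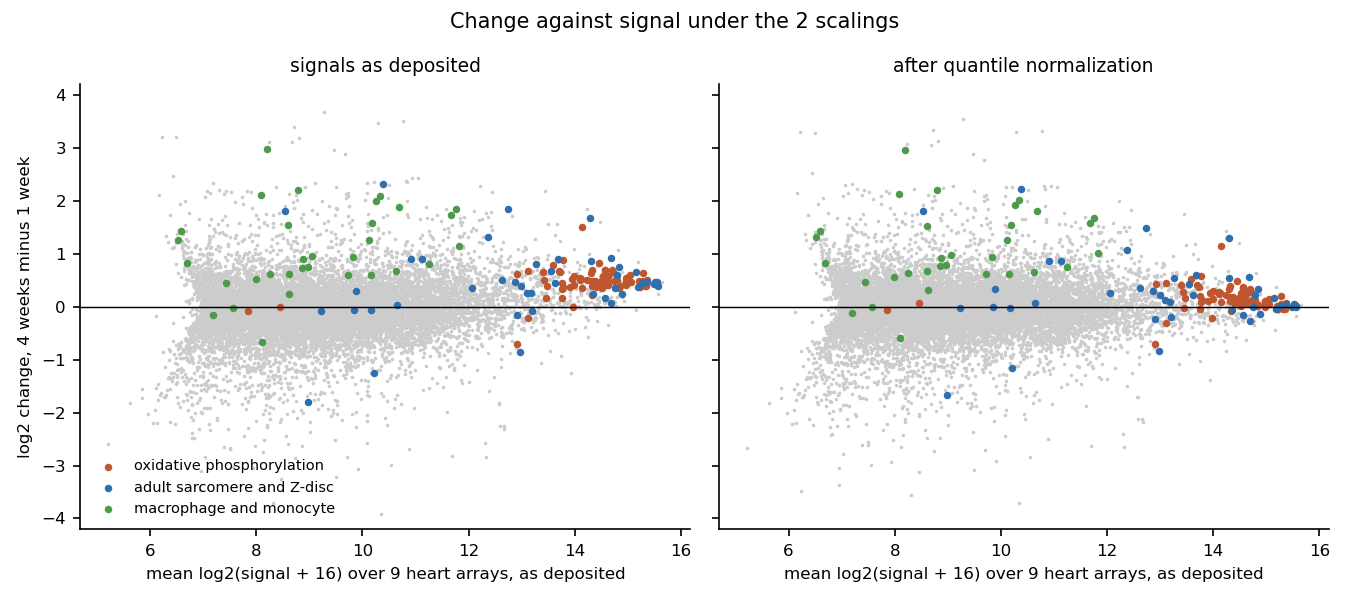
Log2 change from 1 to 4 weeks against the mean log2 signal over the 9 heart arrays for each gene tested, with signals as deposited (left) and after quantile normalization (right); coloured points are members of 3 gene lists, and Tnni1 lies below both axes. On the left the brightest genes, oxidative phosphorylation among them, lie above 0, with a median of 0.44 at signals of 16000 or more; on the right that median is 0.05, and the macrophage list has a median of 0.92 on the left and 0.94 on the right.

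Genes of the cardiac action potential moved in both directions, and the largest were hardly touched by the scaling. Of 38 ion channel and gap junction genes tested, 13 rose (34.2%, against 11.7% of all genes tested) and 6 fell (15.8%, against 14.6%). Their median was -0.08, and 13 rose and 8 fell after quantile normalization. Kcne1, the beta subunit that slows the delayed rectifier channel, read 4260, 4079, 4979 and 5671 at 1 week and 855, 447, 794, 414 and 518 at 4 weeks. It fell by 2.99 (SE 0.23, adjusted p = 1.89e-05). Kcnd2, a pore subunit of the transient outward potassium current that repolarises adult rodent ventricle, read 136, 286, 245 and 191 at 1 week and 1145, 923, 1174, 1024 and 1347 at 4 weeks. It rose by 2.34 (SE 0.20, adjusted p = 3.78e-05), so that neither gene's ages overlapped. Kcnd3, another pore subunit of that current, rose by 1.20, and Kcnip2, its accessory subunit, by 0.78. The sodium channel subunit Scn4b rose by 1.66 from a dim mean of 68.7, and the bicarbonate exchanger Slc4a3 by 1.32. Gjc1, a connexin of early and conducting myocardium, fell by 0.76, while Gja1, the main ventricular connexin, was not called (-0.18, adjusted p = 0.307). Its other 5 probe sets ranged from -0.74 to 0.12, and it was called after quantile normalization (-0.45).

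Of 45 calcium handling genes, 12 rose and 4 fell, with a median of 0.15. Cacna2d1, the alpha2delta subunit of the L-type calcium channel, read 1562, 1348, 1007 and 1087 at 1 week and 3695, 4171, 3852, 3886 and 4195 at 4 weeks. Its rise was 1.67 (SE 0.14, adjusted p = 3.15e-05), without overlap. Hrc, a histidine-rich protein that binds calcium in the sarcoplasmic reticulum, rose by 1.25, and the calcium sensor S100a1 by 0.93. Tmem38a, a potassium channel of the reticulum, rose by 0.86, and Jph1, a junctophilin, by 0.76. The pump Atp2a2, its inhibitor Pln and the release channel Ryr2 were called at 0.44, 0.44 and 0.39, but each of these calls was lost after quantile normalization (-0.0022, -0.005 and 0.18) and without each of replicates 3 and 4 at 1 week and replicates 2 and 5 at 4 weeks. The count of calcium genes that rose was 7 without replicate 3 at 1 week and 7 without replicate 2 at 4 weeks. Ppp1r1a, a protein phosphatase inhibitor, fell by 1.70.

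Oxidative phosphorylation showed how much of the mitochondrial rise depends on scaling. As deposited, 56 of 75 subunit and assembly genes rose and 1 fell, with a median of 0.49, and their summed signal was 1292964 to 1711521 at 1 week and 1823970 to 2159644 at 4 weeks. Of the 75, 56 had mean signals of 16000 or more. After quantile normalization 14 rose and 1 fell, with a median of 0.12. The count also dropped to 31 without replicate 2 or replicate 3 at 1 week, and to 35 without replicate 2 or replicate 5 at 4 weeks. It was 0 when replicate 5 at 1 week was kept, with a median of 0.90. Cox7a1, the heart and muscle isoform of a cytochrome oxidase subunit, was the clearest member. Its signals were 11764, 8996, 9349 and 10405 at 1 week and 28862, 29666, 29070, 25763 and 30669 at 4 weeks. It rose by 1.51 (SE 0.11, adjusted p = 1.69e-05) and by 1.15 after quantile normalization, without overlap. Complex I subunits Ndufs7 and Ndufs1 rose by 0.88 and 0.80 (0.58 and 0.53 after quantile normalization). Atp5a1, the ATP synthase alpha subunit, was called at 0.47 but overlapped between ages, and had 0.03 after quantile normalization. That call was also lost without replicate 2, 3 or 4 at 1 week or replicate 1, 2 or 5 at 4 weeks. Atpif1, the inhibitor of ATP synthase, was the member that fell, by 0.71.

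The tricarboxylic acid cycle and pyruvate entry rose more evenly, with 25 of 26 genes up, none down and a median of 0.65. After quantile normalization 16 rose, with a median of 0.36. Got1, the cytosolic aspartate aminotransferase of the malate shuttle, rose by 1.36, and Mpc1, a subunit of the mitochondrial pyruvate carrier, by 1.09. Mpc1 read 13046, 9616, 9267 and 11052 at 1 week and 20046, 23618, 22796, 22212 and 25004 at 4 weeks. Pcx, pyruvate carboxylase, rose by 1.07, and Cs, citrate synthase, by 0.58, the latter not called after quantile normalization (0.22).

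Enzymes for ketone bodies and branched-chain amino acids rose by more, and their count did not move with the scaling: 15 of 23 rose and none fell, with a median of 0.83, and 15 rose with a median of 0.67 after quantile normalization. Oxct1, the transferase that lets heart burn ketone bodies, read 14555, 9654, 7801 and 9714 at 1 week and 31605, 35621, 31500, 29303 and 36734 at 4 weeks. It rose by 1.69 (SE 0.17, adjusted p = 0.000107), with no overlap. Bdh1, which acts just before it, rose by 2.07 from a dim mean of 97.1 to 394. On the amino acid side, Ppm1k, the phosphatase that activates the branched-chain dehydrogenase complex, rose by 1.67, and the complex's own subunits Bckdha, Bckdhb and Dbt rose by 0.97, 1.02 and 1.06. Ivd, the leucine pathway's isovaleryl-CoA dehydrogenase, rose by 1.59. The kinase that opposes Ppm1k, Bckdk, had a change of 0.08 that was not called.

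Of 45 fatty acid oxidation genes, 18 rose (40%, against 11.7% of all genes tested) and 4 fell (8.89%, against 14.6%). Their median was 0.28. After quantile normalization 13 rose and 4 fell, with a median of 0.08. Dgat2, which makes triglyceride, rose by 1.78 from 2590 to 8859, Acadsb, a short branched-chain acyl-CoA dehydrogenase, by 1.12, Pnpla2, the triglyceride lipase, by 0.93, and Cpt2, the inner-membrane carnitine palmitoyltransferase, by 0.82. Lpl, the lipoprotein lipase, rose by 0.85. Cpt1a, the liver form of the outer-membrane transferase, fell by 0.70, and Acot1, a cytosolic thioesterase, fell by 1.39. The enzymes Acadl (0.11) and Hadha (0.11) did not pass the test. Nor did Cd36, a membrane carrier that takes up fatty acids (0.25), whose other probe sets had 0.52 and 0.77, and it was called with the mean over its probe sets (0.51). Pdk4, the kinase that shuts pyruvate out of the cycle, read 4275, 6478, 8141 and 5350 at 1 week and 5972, 27147, 11729, 13396 and 24370 at 4 weeks. Its call (1.29, adjusted p = 0.041) rested on a wide 4-week spread with overlap and was lost in 10 of 22 alternatives, among them without replicate 1, 2 or 4 at 1 week or replicate 2, 3, 4 or 5 at 4 weeks.

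Glycolysis and glucose uptake had 11 of 29 genes up and 2 down, with a median of 0.33 (9 and 2 after quantile normalization), and 17 rose without replicate 1 at 1 week. Slc2a4, the insulin-responsive transporter Glut4, read 2142, 2602, 3126 and 3183 at 1 week and 6330, 11336, 9936, 10025 and 10809 at 4 weeks, a rise of 1.79 (SE 0.19, adjusted p = 0.000145) without overlap. Hk2, hexokinase 2, rose by 1.32 and Pygm, muscle glycogen phosphorylase, by 1.05. Of 37 regulators of mitochondrial biogenesis and dynamics, 17 rose and 1 fell, with a median of 0.39. The nuclear receptors Rxrg, Ppara and Ppard rose by 1.27, 1.05 and 0.78, and Perm1 and Esrrg, which drive oxidative genes in muscle, by 0.96 and 0.56. The coactivator Ppargc1a (0.48) and the mitochondrial transcription factor Tfam (0.16) were not called. Ckmt2, the mitochondrial creatine kinase of muscle, rose by 1.07.

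Ratios of an early to a late isoform are formed within each array. Of 26 such pairs listed, 23 had both genes tested, and in 21 the late isoform moved up more than the early one, in 16 of them with no overlap between the ages. The same count, 21, held after quantile normalization. The pairs were chosen with earlier results of these data known, and how often other gene pairs shift this way was not computed. The largest shift in log2 ratio was 9.47 from Tnni1 to Tnni3, then 3.16 from Myh7 to Myh6 (3.94 without replicate 1 at 1 week). Ezh2 to Ezh1, which form alternative Polycomb methyltransferases, shifted by 1.78. Hexokinase 1 to 2 shifted by 1.48, Slc2a1 to Slc2a4 by 1.35, Fabp5 to Fabp3, both fatty acid-binding proteins, by 1.30, and Cox7a2 to Cox7a1 by 1.12. Ckb to Ckm, the brain and muscle creatine kinases, and Cox8a to Cox8b both shifted by 1.04. The exceptions were Acta1 to Actc1 (-0.32) and Esrrb to Esrra (-0.11). The light chain pairs Myl7 to Myl2 (0.84) and Myl4 to Myl3 (0.52) overlapped between the ages. Without replicate 2 at 4 weeks, where the atrial genes were low, these shifts were 0.17 and -0.14, and the count of pairs was 20. Without replicate 1 at 1 week it was 22, with Esrrb to Esrra at 0.13. Both omissions were chosen after the values were seen.

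**Figure D3:**
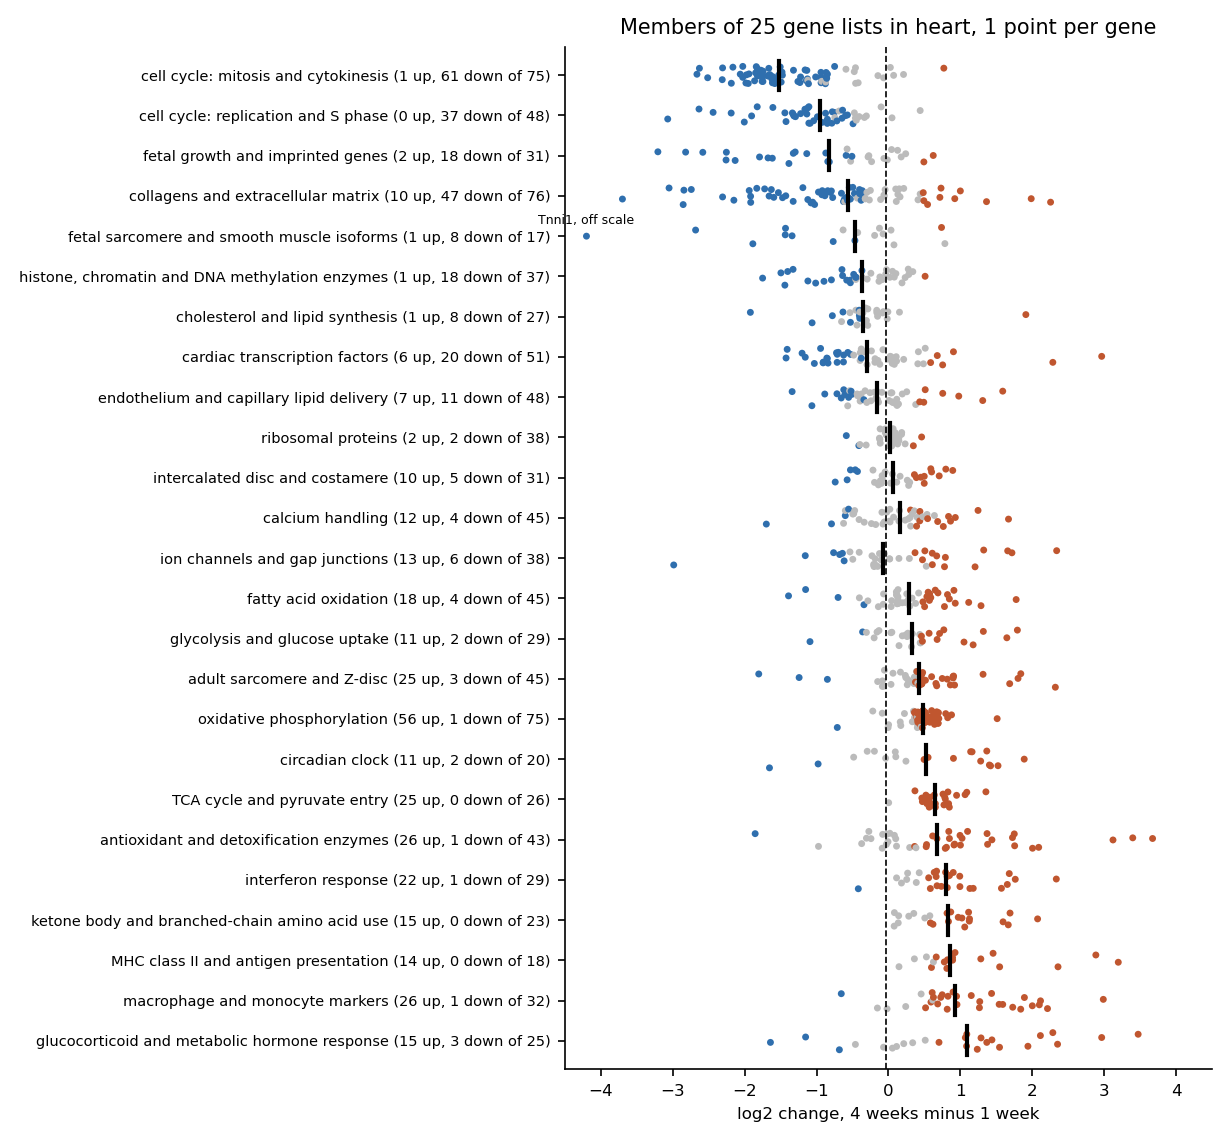
Log2 change from 1 to 4 weeks of each tested member of 25 gene lists (orange rose, blue fell, grey not called by limma at an adjusted p of 0.05), with the list's median as a black bar and the median of all genes tested (-0.04) as a dashed line; Tnni1, at -8.81, is drawn at the left edge. Mitosis genes lie lowest, with a median of -1.53, and the hormone response list highest, with a median of 1.09. The lists were chosen with earlier results of these data known.

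Genes of cell division fell together. Of 75 genes of mitosis and cytokinesis, 61 fell and 1 rose, with a median of -1.53, against 58 and 1 with a median of -1.43 after quantile normalization. Cdk1, the kinase that starts mitosis, read 3281, 970, 1167 and 1322 at 1 week and 314, 325, 365, 495 and 264 at 4 weeks. It fell by 2.06 (SE 0.33, adjusted p = 0.00138). Replicate 1 at 1 week was high, and the other 3 arrays of that age were still above every 4-week array. Ube2c, an enzyme that marks mitotic cyclins for destruction, read 2860, 857, 830 and 1222 at 1 week and 178, 266, 164, 207 and 152 at 4 weeks. Its fall was 2.63 (SE 0.34, adjusted p = 0.000426). Bub1b, a spindle checkpoint kinase, fell by 2.66, and Mki67, the proliferation marker, fell by 1.94. Summed over the 77 genes of the list on the array, the signal was 55996 to 108436 at 1 week, with the highest value in replicate 1, and 37251 to 44782 at 4 weeks. Without that array 60 of 72 fell and 2 rose, with a median of -1.26. The member that rose was Pttg1, or securin, from a mean of 10683 to 18151 (0.77), and it holds a large part of the summed signal at 4 weeks.

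DNA replication followed, with 37 of 48 genes down, none up and a median of -0.95. Rrm2, the ribonucleotide reductase subunit made in S phase, read 5911, 2526, 1908 and 3380 at 1 week and 410, 303, 381, 484 and 259 at 4 weeks. It fell by 3.07 (SE 0.30, adjusted p = 9.29e-05), without overlap. Thymidine kinase Tk1 fell by 2.63, and the helicase subunit Mcm5 fell by 1.61. The kinase Cdk4 fell by 1.12 and its cyclin Ccnd2 by 0.87, while Ccnd1 (-0.10) was not called. Of 34 inhibitors, pocket proteins and regulators of regeneration, 3 rose and 8 fell, with a median of -0.21, and the number that fell was 4 without replicate 4 at 1 week and 5 without replicate 1, 2 or 4 at 4 weeks. Tob2 and Ccng1, both antiproliferative, rose by 1.73 and 1.56. Rbl1, a pocket protein of the retinoblastoma family, fell by 1.06, and Erbb2, the neuregulin co-receptor, by 1.05. The inhibitor Cdkn1b (-0.15) and the pocket protein Rb1 (0.23) were not called.

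The promoters of the mitosis genes shared letters that the choice of genes did not use. Promoter windows, 250 bases before to 50 after the start, were taken from RefSeq on GRCm38.p6, and 10411 tested genes had one. The windows of Cdk1 and Ube2c are shown because they carry both motifs counted, TTTGAA (the core of the cell cycle homology region, CHR) and CCAAT, each searched on both strands and shown in capitals. The Cdk1 window lies at chr10:69352863-69353162 on the minus strand and the Ube2c window at chr2:164769679-164769978 on the plus strand.
Cdk1: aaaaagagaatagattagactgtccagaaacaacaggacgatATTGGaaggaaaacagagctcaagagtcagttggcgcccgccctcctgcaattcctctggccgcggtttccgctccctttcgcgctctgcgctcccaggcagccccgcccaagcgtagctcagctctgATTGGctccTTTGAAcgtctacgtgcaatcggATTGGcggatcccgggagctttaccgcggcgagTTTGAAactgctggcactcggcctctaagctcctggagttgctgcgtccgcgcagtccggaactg
Ube2c: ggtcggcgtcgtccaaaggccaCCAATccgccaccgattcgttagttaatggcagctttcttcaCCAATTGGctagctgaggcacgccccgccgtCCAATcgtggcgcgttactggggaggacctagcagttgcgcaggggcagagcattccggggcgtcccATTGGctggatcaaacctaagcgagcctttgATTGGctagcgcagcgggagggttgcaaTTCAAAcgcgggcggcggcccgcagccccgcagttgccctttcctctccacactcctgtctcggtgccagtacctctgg
TTTGAA or its reverse stood in 41 of 58 mitosis genes with a window (70.7%), in 6 of 40 replication genes (15%) and in 14.5% of all tested genes with a window. CCAAT stood in 72.4% of the mitosis genes, 65% of the replication genes and 42.3% of all. These are counts of letters and show no binding.

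Fetal growth genes fell as well. Of 31 imprinted and fetal growth genes tested, 18 fell and 2 rose, with a median of -0.82 (17 and 1 after quantile normalization). Igf2, the paternally expressed fetal growth factor, read 10879, 13708, 16002 and 14758 at 1 week and 1842, 1815, 2605, 2445 and 2858 at 4 weeks. It fell by 2.58 (SE 0.17, adjusted p = 1.13e-05), with a wide gap between the ages. Mest, another paternally expressed gene, fell by 2.82 (SE 0.13, adjusted p = 1.6e-06) from a mean of 9846 to 1386. The growth factor Ptn, pleiotrophin, fell by 3.21 and its relative Mdk by 2.13. Plagl1, a transcription factor of the imprinted network, fell by 2.25, Dlk1 by 1.79 and Peg3 by 1.67. The clearance receptor Igf2r fell by 0.87. Growth hormone and IGF signalling had 7 of 27 genes up and 6 down, and 4 up without replicate 2 at 1 week. Igf1r, the receptor of both IGFs, fell by 0.69. Pik3r1, a PI3-kinase regulatory subunit, rose by 1.28.

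The extracellular matrix was the other large group that fell, with 47 of 76 genes down and 10 up, a median of -0.57 and 49 down after quantile normalization. Eln, the elastin of arteries and valves, read 19362, 15660, 15716 and 11422 at 1 week and 2439, 1809, 2067, 2355 and 1959 at 4 weeks. It fell by 2.84 (SE 0.16, adjusted p = 6.11e-06). Fbn2, the fibrillin of developing tissue, read 1302, 1584, 1172 and 1199 against 93.9, 92.1, 61.2, 118 and 72.2, a fall of 3.70 (SE 0.17, adjusted p = 1.6e-06). Both genes were far apart between the ages. Tenascin C (Tnc) fell by 3.05, periostin (Postn) by 2.31, and the crosslinking enzyme Lox fell by 1.94. Among fibrillar collagens, the changes were -1.59 for Col1a1 and -1.43 for Col5a2. Col3a1 depended on its probe set, with -0.35 for the brightest, -1.62 for the other and -0.98 for their mean. The call of the brightest was lost in 10 of 22 alternatives, among them without replicate 2, 3 or 4 at 1 week or replicate 2, 3, 4 or 5 at 4 weeks. Basement membrane genes split, with Col4a2 down by 0.47 and Col4a3 up by 0.92. Timp4, an inhibitor of matrix proteases, rose by 2.25 from a mean of 297 to 1534, and Timp3 by 1.00.

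Fibroblast, epicardial and valve markers did not move as one. Of 28 tested, 6 rose and 10 fell, with a median of -0.37, and the list's summed signal was 68442 to 74209 at 1 week and 71690 to 87575 at 4 weeks. Gsn, which rose, holds a large part of the 4-week sums. Tcf21, a transcription factor of cardiac fibroblasts, fell by 1.41, and Aldh1a2, the retinoic acid enzyme of epicardium, by 2.02. Wt1, an epicardial factor, fell by 0.84. Gsn, the actin-severing protein gelsolin, rose by 2.19 (SE 0.13, adjusted p = 7.04e-06) from a mean of 4822 to 22048, and Pi16, found in quiescent fibroblasts, by 2.00. Pdgfra (-0.31) was not called.

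Transcription factors of heart development fell more often than they rose, with 20 of 51 down, 6 up and a median of -0.30. Tbx20 read 6094, 8943, 7373 and 6828 at 1 week and 3200, 2809, 3518, 3106 and 3099 at 4 weeks, a fall of 1.20 (SE 0.13, adjusted p = 0.000152) without overlap. Irx4 and Hey2, both ventricular factors, fell by 1.16 and 1.03, Gata4 by 0.85, and Myocd, the myocardin coactivator, by 0.72. The Hey2 call was lost without replicate 2 at 1 week. Mef2c (-0.15) was not called. Among 37 chromatin enzymes and proteins 18 fell and 1 rose, with a median of -0.37. Several of those that fell are also known as proliferation genes, such as Hmgb2 (-1.75) and Uhrf1 (-1.44). The member that rose was Hdac4, a class II deacetylase, by 0.51.

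The thyroid hormone receptor Thra fell by 0.94, with 1-week signals of 2313, 3062, 3717 and 4057 and 4-week signals of 2103, 1587, 1330, 1501 and 1910. Of 22 genes that handle or answer thyroid hormone, 12 rose and 3 fell, with a median of 0.47, and 8 rose after quantile normalization. The hormone-responsive genes Thrsp and Hr rose by 2.26 and 1.26. The thyroid list shares Tnni1, Myh7 and Slc2a4 with the lists above. Thrsp also belongs to the fat cell list, of which 5 of 18 genes tested rose and 3 fell, with a median of 0.17. The part of fat cells in the rise of Thrsp was not tested.

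Genes answering glucocorticoids and metabolic hormones had the highest median of all 48 lists, 1.09, with 15 of 25 up and 3 down (14 and 3 after quantile normalization, median 0.95). That rank is among lists chosen with earlier results of these data known, so it does not test hormone response. Zbtb16, a glucocorticoid-induced zinc finger factor, read 232, 304, 408 and 326 at 1 week and 1460, 4221, 3941, 5416 and 4697 at 4 weeks. It rose by 3.47 (SE 0.35, adjusted p = 9.75e-05), 11.1-fold, with replicate 1 lowest at each age. Klf15, a regulator of heart lipid and amino acid use, read 235, 161, 334 and 154 at 1 week and 1424, 2202, 1414, 1711 and 2197 at 4 weeks, a rise of 2.97 (SE 0.24, adjusted p = 2.47e-05). Klf9 rose by 2.29 and Cebpb by 2.35, and neither overlapped between the ages. Fkbp5, a chaperone that damps the glucocorticoid receptor, rose by 1.09, but the call was lost without replicate 2 at 1 week or replicate 2 at 4 weeks. The receptor itself, Nr3c1, had a change of 0.11 and was not called.

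Of 20 circadian clock genes, 11 rose (55%, against 11.7% of all genes tested) and 2 fell (10%, against 14.6%). Their median was 0.52 (0.56 after quantile normalization). The activator Arntl read 443, 596, 561 and 510 at 1 week and 162, 162, 135, 152 and 170 at 4 weeks, a fall of 1.65 (SE 0.12, adjusted p = 1.43e-05). Its other probe set had -0.06, and with the mean of both Arntl fell by 0.86. Dbp, an output factor, read 1580, 963, 899 and 1143 at 1 week and 5498, 3135, 4989, 3877 and 3845 at 4 weeks, a rise of 1.89 (SE 0.21, adjusted p = 0.000162). The repressors Per1, Per2 and Nr1d1 rose by 1.37, 1.16 and 1.42. Clock (-0.30) and Cry1 (-0.20) were not called. The labels give no hour of collection, so age and time of day cannot be told apart for these genes. Per1 belongs to both the clock and the hormone list, and 1 of its 2 windows, at chr11:69098699-69098998 on the plus strand, is shown for its E box CACGTG, a palindrome that Arntl's protein binds, and its D box TTATGNAA, both in capitals.
Per1: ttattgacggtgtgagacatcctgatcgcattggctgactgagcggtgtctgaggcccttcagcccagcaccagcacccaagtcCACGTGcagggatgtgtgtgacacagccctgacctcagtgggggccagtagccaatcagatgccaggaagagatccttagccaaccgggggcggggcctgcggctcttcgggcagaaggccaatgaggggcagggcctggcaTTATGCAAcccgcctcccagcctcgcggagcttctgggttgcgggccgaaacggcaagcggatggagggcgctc
The E box stood in 5 of 17 clock genes with a window (29.4%) and in 11.3% of all tested genes with one. The D box stood in 2 of 17 clock genes (11.8%), Per1 among them, and in 2.44% of all tested genes with a window.

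Macrophage genes rose. Of 32 markers of macrophages and monocytes, 26 rose and 1 fell, with a median of 0.92 (27 and 0, with a median of 0.94, after quantile normalization). The summed signal of the 33 on the array was 17138 to 19095 at 1 week and 42532 to 47778 at 4 weeks. Cd163, the haemoglobin scavenger receptor of resident macrophages, read 54.6, 115, 74.5 and 72.7 at 1 week and 402, 844, 875, 955 and 683 at 4 weeks, a rise of 2.99 (SE 0.26, adjusted p = 4.42e-05). C1qa, a complement component that these cells make, read 778, 676, 811 and 852 against 2790, 2828, 3084, 2801 and 3131, a rise of 1.89 (SE 0.10, adjusted p = 5.34e-06). Both were separated between the ages. F13a1, Lyve1 and Folr2, markers of tissue-resident cells, rose by 2.10, 1.59 and 1.54, and the growth factor receptor Csf1r by 1.15. Ccr2, the receptor of recruited monocytes, rose by 0.83 at dim signals, from a mean of 59.3 to 120. Cx3cr1 was the member that fell, by 0.66, with overlapping arrays and a call lost in 11 of 22 alternatives, among them without replicate 1, 2 or 4 at 1 week or replicate 2, 3, 4 or 5 at 4 weeks.

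Antigen presentation rose with them: 14 of 18 genes were up and none down, with a median of 0.86. H2-Ab1, a class II beta chain, read 50.9, 77, 211 and 193 at 1 week and 822, 1414, 1394, 956 and 1514 at 4 weeks, a rise of 3.20 (SE 0.37, adjusted p = 0.000226). H2-Aa, a class II alpha chain, read 169, 299, 330 and 244 against 2858, 1588, 1715, 1948 and 1963, a rise of 2.88 (SE 0.22, adjusted p = 1.72e-05). The invariant chain Cd74 rose by 2.36 and H2-Eb1 by 1.46. None of these 4 genes overlapped between the ages. Class I genes rose as well, H2-K1 by 1.55 and B2m by 0.93, with the class I regulator Nlrc5 at 1.28. The class II regulator Ciita (0.15, adjusted p = 0.741) was not called. Of 26 lymphocyte markers on the array, 11 were bright enough to test. Of these, 2 rose and 1 fell, with a median of 0.35 (4 and 1, with a median of 0.37, after quantile normalization). The summed signal of the 26 was 3547 to 5661 at 1 week and 4276 to 5106 at 4 weeks, lowest in replicate 1 at 1 week. Neutrophil and mast cell markers gave 5 of 8 down, with S100a8 and S100a9 lower by 1.64 and 1.16. The part of macrophage abundance in the class II result was not tested.

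The class II windows of H2-Aa (chr17:34287774-34288073, minus strand) and H2-Eb1 (chr17:34305617-34305916, plus strand) are shown for the Y box CTGATTGG, in capitals, which class II promoters share and which contains CCAAT in reverse.
H2-Aa: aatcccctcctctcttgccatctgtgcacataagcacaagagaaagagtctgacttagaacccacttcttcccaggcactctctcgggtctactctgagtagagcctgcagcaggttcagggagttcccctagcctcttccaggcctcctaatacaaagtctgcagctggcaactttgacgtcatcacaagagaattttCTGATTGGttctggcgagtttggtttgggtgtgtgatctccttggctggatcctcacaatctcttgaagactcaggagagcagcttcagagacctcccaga
H2-Eb1: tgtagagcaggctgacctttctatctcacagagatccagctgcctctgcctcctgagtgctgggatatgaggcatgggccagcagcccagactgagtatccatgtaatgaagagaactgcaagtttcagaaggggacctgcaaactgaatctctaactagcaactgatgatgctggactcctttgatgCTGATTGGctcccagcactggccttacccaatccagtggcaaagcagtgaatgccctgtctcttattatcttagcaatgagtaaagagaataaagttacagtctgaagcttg
It stood in 7 of 13 antigen presentation genes with a window (53.8%) and in 6.33% of all tested genes with one.

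Interferon-induced genes rose too, with 22 of 29 up, 1 down and a median of 0.79 (23 and 1 after quantile normalization). Their summed signal was 25287 to 30927 at 1 week and 42234 to 51868 at 4 weeks. Ifit3, an antiviral protein, read 183, 216, 237 and 275 at 1 week and 904, 743, 774, 772 and 624 at 4 weeks, a rise of 1.68 (SE 0.14, adjusted p = 3.78e-05). Its relative Ifit1 rose by 1.57 and Oas2 by 1.76. Cxcl9, a chemokine that interferon gamma induces, rose by 2.33 from 50.5 to 297, and the factor Irf7 by 0.84. Ifit2 (0.27) and Stat2 (0.39) were not called. The windows of Ifit1 (chr19:34640639-34640938) and Ifit3 (chr19:34583279-34583578), both on the plus strand, each hold the core of the interferon-stimulated response element (TTTC, any 2 bases, TTTC) at 2 places shown in capitals.
Ifit1: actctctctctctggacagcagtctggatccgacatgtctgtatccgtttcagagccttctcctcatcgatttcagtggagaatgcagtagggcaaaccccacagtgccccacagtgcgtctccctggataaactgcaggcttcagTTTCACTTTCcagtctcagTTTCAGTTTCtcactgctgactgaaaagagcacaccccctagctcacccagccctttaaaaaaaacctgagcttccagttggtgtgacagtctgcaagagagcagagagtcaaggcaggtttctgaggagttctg
Ifit3: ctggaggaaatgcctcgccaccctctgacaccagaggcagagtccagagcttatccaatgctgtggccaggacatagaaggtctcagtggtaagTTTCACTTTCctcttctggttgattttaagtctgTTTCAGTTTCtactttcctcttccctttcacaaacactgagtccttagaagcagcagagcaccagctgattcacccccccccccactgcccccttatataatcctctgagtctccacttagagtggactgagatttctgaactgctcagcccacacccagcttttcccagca
That motif stood in 15 of 24 interferon genes with a window (62.5%) and in 3.58% of all tested genes with one.

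**Figure D4:**
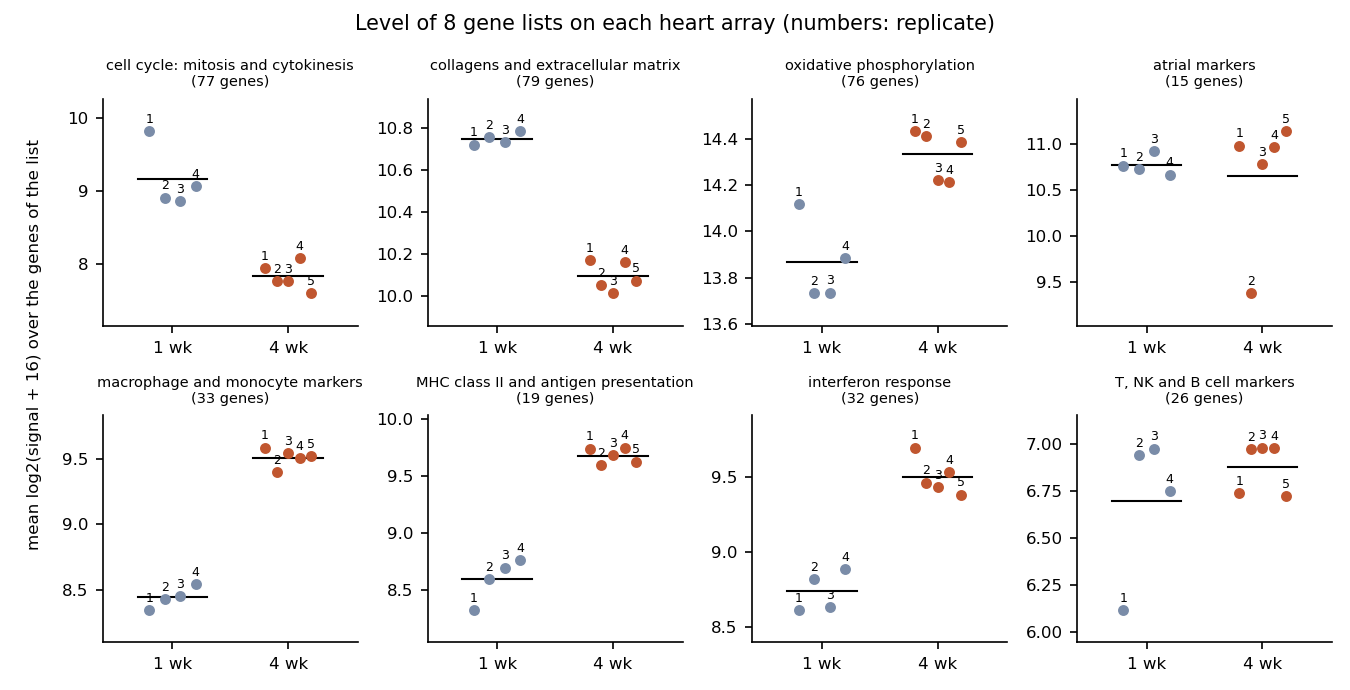
Mean log2(signal + 16) over the genes of 8 lists on each heart array (numbers are replicates; bars are means over arrays; the axes differ and do not start at 0). The macrophage, antigen presentation and interferon lists are higher and the matrix and mitosis lists lower on all 4-week arrays; replicate 1 at 1 week is high for mitosis and low for lymphocyte markers, and replicate 2 at 4 weeks is low for atrial markers.

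Antioxidant and detoxifying enzymes rose in 26 of 43 cases and fell in 1, with a median of 0.67. Xdh, xanthine dehydrogenase, read 164, 106, 67.1 and 75.5 at 1 week and 779, 1287, 1305, 1318 and 1334 at 4 weeks, a rise of 3.40 (SE 0.24, adjusted p = 1.46e-05). Ces1d, a carboxylesterase, rose by 3.67 (SE 0.26, adjusted p = 1.28e-05) from a mean of 145 to 1927. The carbonyl reductase Cbr2 rose by 3.12 and the glutathione transferase Gstm1 by 1.72. The mitochondrial peroxidase Prdx3 rose by 0.84, while Gpx1 (-0.31) and Sod1 (0.08) were not called.

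A pair of desaturases, which make monounsaturated fatty acids, moved in opposite directions. Scd2 read 3538, 4683, 4548 and 4037 at 1 week and 1153, 865, 1161, 1099 and 1217 at 4 weeks, a fall of 1.92 (SE 0.14, adjusted p = 1.36e-05). Scd1 rose by 1.91 (SE 0.39, adjusted p = 0.00555) from 257, 567, 368 and 460 to 904, 1101, 1417, 3966 and 1527. Fat cells also express it, and the fat cell gene Adipoq was uneven, at 2.6, 651, 30.2 and 3.7 and then 167, 148, 205, 749 and 229, and not called with all arrays. Replicate 4 was the highest 4-week array for both genes. Of 27 cholesterol and lipid synthesis genes 8 fell and 1 rose, but 3 fell without replicate 3 and 4 without replicate 4 at 1 week, and 5 without replicate 2 at 1 week or without replicate 2, 3 or 5 at 4 weeks.

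Vessel genes moved little as a group: 7 of 48 endothelial genes rose and 11 fell, with a median of -0.17, and 7 fell without replicate 3 at 1 week or replicate 5 at 4 weeks. Their summed signals overlapped at 159689 to 175035 and 160314 to 170556. The tight junction gene Cldn5 fell by 1.34 (SE 0.10, adjusted p = 2.08e-05), and the water channel Aqp1 rose by 1.31. Smooth muscle and pericyte markers gave 6 up and 5 down of 18. Of 15 atrial markers 2 rose and 1 fell. Myl7, the atrial light chain, read 24031, 2443, 19216, 21423 and 24754 at 4 weeks against 16511 to 23695 at 1 week, so replicate 2 held far less atrial signal than the other arrays. Nppa showed the same array low, at 10865 against 37798 to 47674. Neither gene was called (-0.43 for Myl7 and 0.10 for Nppa). Without that array Myl7 had 0.21 and Nppa was called at 0.50. Liver genes were dim, with summed signals of 1546 to 3812 and 928 to 1818, and 4 of 10 fell, but 1 without replicate 2 at 1 week. Of 15 lung epithelial genes 1 rose, Lyz1, which is also a macrophage gene and close in sequence to Lyz2. Skeletal muscle markers had 2 up and none down of 9, with the defining factor Myod1 not called (-0.12). The part of these cells in the changes above was not tested.

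Other genes of the largest changes belonged to none of the lists. Rpl3l, the ribosomal protein that replaces its ubiquitous relative in adult muscle, read 521, 348, 407 and 487 at 1 week and 6025, 5933, 4268, 4445 and 5201 at 4 weeks, a rise of 3.51 (SE 0.16, adjusted p = 1.6e-06). The other ribosomal protein genes had 2 up and 2 down of 38. Mylk4, a myosin light chain kinase, rose by 2.44, and Art1, a muscle ADP-ribosyltransferase, by 2.43. Tuba8 and Agtpbp1, an alpha-tubulin and an enzyme that trims glutamates from tubulin, rose by 2.38 and 2.30. Bex1, an adaptor protein of developing tissue, read 6447, 5474, 5169 and 6346 at 1 week and 413, 360, 397, 362 and 341 at 4 weeks. It fell by 3.91 (SE 0.11, adjusted p = 4.48e-08). The coregulator Cited1 fell by 3.46, the Wnt antagonist Sfrp2 by 2.84, and Mt3, a metallothionein, fell by 3.03. Several others were dim at one age. Lrat, which esterifies retinol for storage, read 11, 15.5, 5.9 and 9.1 at 1 week and 274, 182, 355, 250 and 133 at 4 weeks, a rise of 3.22 (SE 0.24, adjusted p = 1.81e-05). The glutathione transferase Gsta3 rose by 3.21 and the chemokine Ccl6 by 3.00. Slc25a33, a mitochondrial carrier of pyrimidine nucleotides, rose by 2.34 from a mean of 435 to 2285. Cpa1, a carboxypeptidase best known from pancreas, read 259, 256, 262 and 318 at 1 week and at most 18.2 at 4 weeks, a fall of 3.49 (SE 0.17, adjusted p = 1.96e-06). The phosphatase Dusp5 and the matrix protein Spon2 fell by 2.83 and 2.59.

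Single genes also depended on the probe set. With the mean over a gene's probe sets in place of the brightest, calls were lost for Rbl1 (-0.22), Fkbp5 (0.69), Kcnip2 (0.41), Hdac4 (0.27), Esrrg (0.21) and Tnnt2 (0.25), as for Atp5a1, Ryr2, Esrra and Cx3cr1. The call of Ccr2 was lost with the probe set brightest on the heart arrays (0.55). Other calls held, with a fold that moved by over 1.5 times. Among these, Dlk1 fell by 0.77, Mcm5 by 0.99, Spon2 by 1.48, Tnc by 1.99 and Bub1b by 2.02. The rises became 1.00 for Cacna2d1, 1.06 for Lyz1 and Tob2, 1.08 for Pi16, 1.48 for Thrsp and 1.75 for Kcnd2. For the larger rises they became 2.19 for Ccl6, 2.46 for Lrat, 2.57 for H2-Ab1 and 2.80 for Zbtb16. Art1 had 3.37 with the probe set brightest on the heart arrays.

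To see where the heart differed from other organs, its change was set against that of kidney and of lung, in one fit each. These arrays, 5 at each age for kidney and 4 at 1 week and 5 at 4 weeks for lung, came from mice of the same strain, sex and ages. Replicate 4 of lung at 1 week was left out because it carries heart transcripts. The heart's change differed from the kidney's for 2574 of 14213 genes (18.1%), higher for 1450 (10.2%) and lower for 1124 (7.91%). Against lung it differed for 2507 of 14252 (17.6%), higher for 1126 (7.90%) and lower for 1381 (9.69%). Both comparisons use the same heart arrays, so they are given side by side. Rpl3l had a heart change higher by 3.06 than kidney (SE 0.48) and by 3.60 than lung (SE 0.30). Kcnd2 exceeded kidney by 5.08, where it fell by 2.74, and lung by 2.14. In kidney alone 15.6% of genes tested rose and 23.9% fell, and in lung alone 19.3% and 19.2%. Tgfbi, a matrix protein, rose by 0.50 in heart and fell by 2.35 in kidney and 2.84 in lung, although the heart call was lost in 6 of 22 alternatives, among them without replicate 2 at 1 week and without replicate 2 or 4 at 4 weeks. F13a1 exceeded kidney by 3.13 and lung by 2.05. In the other direction the differences from kidney and lung were -8.64 and -7.87 for Tnni1 and -3.74 and -2.87 for Kcne1. Lpar3, a lysophosphatidic acid receptor, fell by 2.27 in heart but rose by 0.68 in kidney and 1.54 in lung, and Abca4, a lipid transporter, fell by 2.01 but rose by 1.16 and 1.70.

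Gene lists set the heart apart from the 2 organs in different ways. The counts here use the signals as deposited and were not repeated after quantile normalization. Oxidative phosphorylation genes had a higher change than in lung in 51 of 75 cases, and than in kidney in 0 of 76, with 2 lower. In heart alone, the number of these genes that rose dropped from 56 to 14 after quantile normalization. Macrophage genes had a higher change than in kidney in 20 of 32 cases and than in lung in 16 of 33. Matrix genes, most of which fell in heart, had a higher change than in kidney in 39 of 77 cases and a lower one in 4, while against lung 13 of 78 were higher and 18 lower. Ketone and branched-chain amino acid genes had a higher change than in lung in 15 of 24 cases and a lower one in 1, and against kidney 2 were higher and 1 lower.

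**Figure D5:**
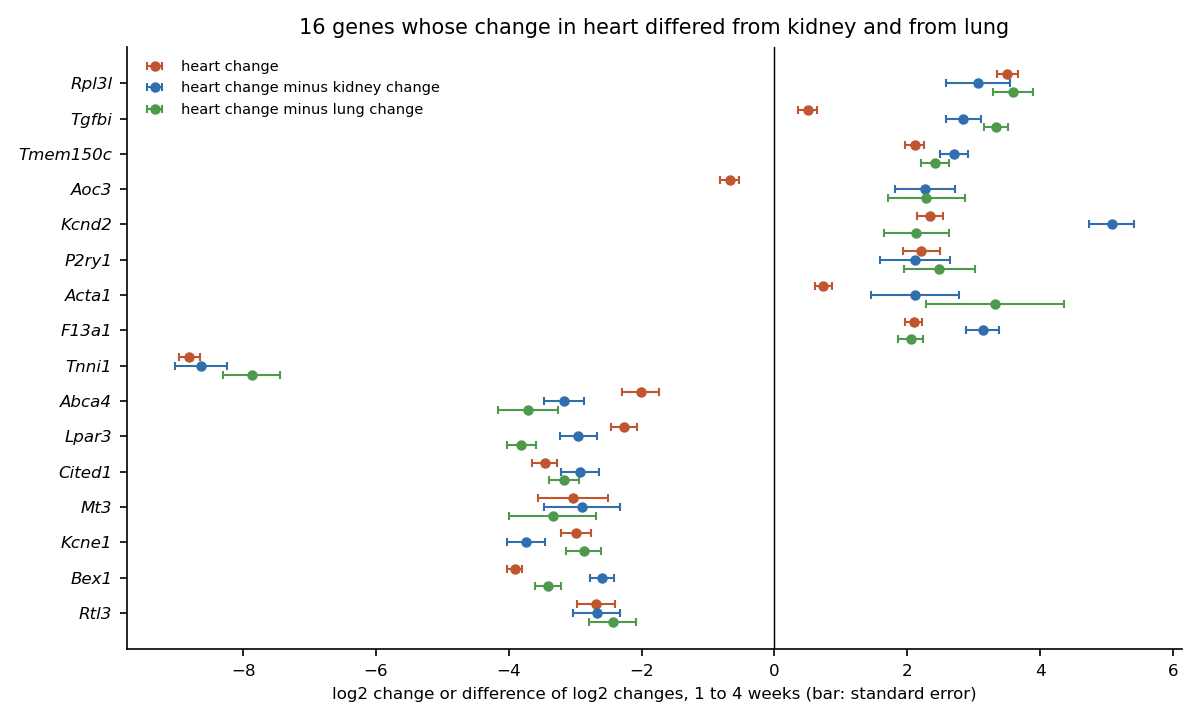
Log2 change in heart from 1 to 4 weeks (orange), and the heart change minus that of kidney (blue) and of lung (green), for the 8 genes per direction with the largest differences from both organs; bars are standard errors. Aoc3 fell in heart, by 0.67, but by less than in the other organs, so its differences are positive; Tnni1 has the largest negative values, from -8.81 to -7.87.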

How the data were processed

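Whole-organ RNA was measured on 1-colour Affymetrix arrays. The deposited values are the authors' linear signal intensity per probe set; in every array their 2% trimmed mean was 500, and the highest value was 69706.7. RMA and Partek 6.6 are named in the submitters' processing notes without a role. The values were used as deposited and transformed to log2(intensity + 16). Of 45101 probe sets, 34958 had 1 gene symbol and were used, 932 had several and 9211 had none in the platform annotation. For each of the 18193 genes the probe set brightest on average over all 40 arrays was kept. Among named genes that were called, 96 had 171 other probe sets above the cutoff, of which 5 had the opposite sign (Atp5a1, Esrra, Kcnip2, Perm1 and Tnnt2).

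Genes were tested if the mean of either heart age reached the 40th percentile (117.9). Changes were fitted with limma 3.58.1 (lmFit and eBayes, R 4.3.3, data.table, version 1.17.8), with Benjamini-Hochberg adjustment over all genes tested and a threshold of 0.05. Heart replicate 5 at 1 week was left out for its lung transcripts, and results with it are given as an alternative. In the comparison with lung, lung replicate 4 at 1 week was left out for its heart transcripts. With both arrays kept, the change differed from that in lung for 1755 genes. Heart was compared with kidney and with lung by the difference of changes in a fit of the 4 groups. Figures were drawn with matplotlib 3.10.9 (Python 3.11.15). Promoter windows came from RefSeq (GRCm38.p6), and motifs were searched on both strands. In simulated data on 12946 genes, the heart test called 3 of 50 genes changed by 0.5 on the log2 scale, 79 of 100 changed by 1 and 47 of 50 changed by 2, and 7 unchanged genes.

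Genes named were taken from the 25 largest rises and 25 largest falls among called genes without overlap, leaving out placeholder symbols. Others were members of 48 gene lists and 26 isoform pairs, or among the 8 genes per direction that differed most from kidney and lung. Not every gene of these groups is named. The members and lists were chosen with earlier results of these data known. Precision is limited by how few arrays each age has.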

Additional observations from a re-analysis of the deposited data

Results flagged for a closer look

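For each gene named, the highest or lowest array of an age was set against its nearest neighbour, as the gap divided by the whole range on the log2(signal + 16) scale. Of 440 gene and age groups, 38 had a gap above Dixon's critical value, and chance flags about 1 in 20 such groups. At 1 week, 9 of 18 lay in replicate 1. There Hk2 (0.902), Myl2 (0.916), Pln (0.887), Slc25a33 (0.852) and Tuba8 (0.860) were high, and Ezh1 (0.875), Igf2r (0.911), Myh7 (0.959) and Pik3r1 (0.887) were low. Replicate 2 was low for Dgat2 (0.960) and high for Lyve1 (0.950). Replicate 3 was low for Cd36 (0.839), Esrrg (0.926) and Hr (0.859) and high for Irx4 (0.861). Replicate 4 was high for Cdkn1b (0.906), Cpa1 (0.902) and Gsta3 (1.000), the last at dim signals.

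At 4 weeks, replicate 1 was high for B2m (0.894) and Cdk4 (0.855) and low for Lyve1 (0.746), Mef2c (0.824), Slc2a4 (0.774), Timp4 (0.912), Xdh (0.934) and Zbtb16 (0.757). Replicate 2 was low for the atrial genes Myl7 (0.890) and Nppa (0.843) and for Cited1 (0.770) and Plagl1 (0.744), and high for Hdac4 (0.715). Replicate 3 was high for Col1a1 (0.734), Per2 (0.759) and the lung gene Sftpc (0.725) and low for Lox (0.759). Replicate 4 was high for the fat cell gene Adipoq (0.741) and low for Slc4a3 (0.759), and replicate 5 was high for Gsn (0.759). The causes were not tested.

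The change in heart differed from that in kidney for 2574 genes and from that in lung for 2507, by limma's test of the difference. Heart minus kidney and heart minus lung were 3.06 and 3.60 for Rpl3l, 2.84 and 3.34 for Tgfbi, 2.70 and 2.42 for Tmem150c, and 2.26 and 2.28 for Aoc3. They were 5.08 and 2.14 for Kcnd2, 2.12 and 2.49 for the purine receptor P2ry1, 2.11 and 3.32 for Acta1, and 3.13 and 2.05 for F13a1. On the other side they were -8.64 and -7.87 for Tnni1, -3.17 and -3.71 for Abca4, -2.95 and -3.81 for Lpar3, and -2.93 and -3.17 for Cited1. The last 4 pairs were -2.89 and -3.33 for Mt3, -3.74 and -2.87 for Kcne1, -2.60 and -3.41 for Bex1, and -2.68 and -2.44 for Rtl3.

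The heart array left out, replicate 5 at 1 week, read 27200 for the surfactant gene Sftpc and 30900 for the club cell gene Scgb1a1. Both lay within the range of the 1-week lung arrays used (23328 to 28922 and 26608 to 32054).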

How the results depend on the processing

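The count of 3406 heart calls ranged from 2382, with replicate 5 at 1 week kept, to 4519 with all 8 groups in one fit, and from 2666 to 3691 when single arrays were left out. It was 3294 after quantile normalization, 2785 without a filter on dim genes, 3034 with the mean of a gene's probe sets and 3567 with trended, robust moderation. No call changed direction in these settings, and 1 did with the probe set highest over the heart arrays. Against kidney the count ranged from 1752 to 2822 (2218 to 2678 without single arrays), and against lung from 1755 to 3073 (2082 to 3073). Replicate 1 of each age has a description in capitals. These arrays also had the highest poly-A control signals of their ages (13.1 at 1 week and 13.3 at 4 weeks, log2 scale). Their median signals, 135 and 145, were the lowest of their ages. The main fit does not model this. With letter case as a block 4287 genes were called, and among the lower-case arrays 3725. In their deviations, same-numbered arrays correlated at 0.52 for replicate 1 and at 0.01, 0.20 and 0.16 for replicates 2, 3 and 4. The numbers were not taken to pair the arrays. With a replicate block 3158 genes were called (2570 against kidney, 2186 against lung). Of the named genes that were called, the sign turned for Tgfbi (-0.30) with replicate 5 kept. For heart minus lung of Kcne1 the sign turned (0.18) with that array and replicate 4 of lung at 1 week both kept. After quantile normalization, which lowers the most abundant genes at 4 weeks, the sign turned for Actc1 (-0.0119), Atp2a2 (-0.0022) and Pln (-0.005). Changes near 0.5 on the log2 scale were seldom called in simulated data, but far fewer genes were changed there than were called in heart. This makes the adjusted threshold stricter, so that share does not carry over to the heart fit. The smallest fold called in heart was 1.21. A gene not called may still have changed.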
